A study of Homo sapiens with 6 samples.

Results

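Secreted factors that promote or restrain blood vessel growth, other than the VEGF family, were examined in ARPE-19 cells exposed to the kinase inhibitor SRPIN803. ARPE-19, an established cell line of human origin, came from retinal pigment epithelium. The set was 10 genes chosen by name, ANGPT1, ANGPT2, THBS1, SERPINF1, EDN1, FGF2, PDGFA, PDGFB, EFNA1 and TYMP, of 19775 genes measured. They were read through the 29 probe sets, of 54613 that are not controls, whose platform annotation names exactly 1 of these genes. The study compared 3 arrays of cells given SRPIN803 at 10 µM with 3 arrays of cells given 0.1% DMSO, each for 4 h, after growth in medium with 10% serum. The labels do not say whether the SRPIN803 cells also received DMSO. If they did not, the compound and the lack of DMSO cannot be told apart. Both groups were the same unmodified line. The compound is described as inhibiting both SRPK1, which phosphorylates splicing factors, and protein kinase CK2. Whether replicates came from separate cultures is not stated, and p-values therefore measure only how far these arrays differ, which may be technical.

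The retinal pigment epithelium lies between the photoreceptors and the vessels of the choroid, and is known to secrete both stimulators and inhibitors of vessel growth. Platelet-derived growth factors, made of A and B chains, recruit pericytes and other mesenchymal cells. FGF2 stimulates endothelial growth, endothelin-1 (EDN1) constricts vessels, and ephrin-A1 (EFNA1) and thymidine phosphorylase (TYMP, an enzyme also known as platelet-derived endothelial cell growth factor) have been described as angiogenic. Thrombospondin-1 (THBS1) and pigment epithelium-derived factor (the product of SERPINF1) restrain vessel growth. Angiopoietin-1 activates the endothelial receptor TEK, while angiopoietin-2 can oppose it or act with VEGF, so both were kept apart from the other roles.

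Values are RMA values on a log2 scale, in which 1 unit is a doubling. Brightness depends on the probes, so levels of different genes were not set against each other, and a gene is only called bright or dim against the median of all genes (6.53) or of all probe sets (5.26). Array medians lay between 5.25 and 5.28, and arrays of a group correlated at 0.9957 to 0.9977 (Pearson's r over probe sets), those of different groups at 0.9940 to 0.9961. Of 10 markers of retinal pigment epithelium, 3 lay above the median level, among them the factors MITF and OTX2, while RPE65 and LRAT, enzymes of the visual cycle, were at levels of 2.33 and 2.83. The mean over these 10 markers was 5.87 to 5.96 on the SRPIN803 arrays and 5.84 to 5.86 on the DMSO arrays, without overlap. MITF was called higher (log2 change 0.35 ± 0.07, limma's adjusted p = 0.0312), and OTX2 was at 0.17 ± 0.06 (0.179) with groups that did not overlap. MITF was the only 1 of the 10 called, where 3.46% of all genes were called higher and groups did not overlap upward in 15.2%. RPE65, RLBP1 and TTR were at -0.18, -0.14 and -0.02, and the other markers were above 0, with a median of 0.09 over the 10. None of the 8 endothelial markers lay above the median level (0 of 8), and the mean over these markers was 4.35 to 4.39 on the SRPIN803 arrays and 4.32 to 4.37 on the DMSO arrays. For fibroblasts and pericytes 2 of 8 markers lay above it, with means of 5.72 to 5.90 on the SRPIN803 arrays and 5.74 to 5.86 on the DMSO arrays. For leukocytes 0 of 5 did, with means of 4.64 to 4.80 and 4.61 to 4.67 in SRPIN803 and DMSO, and the part of cell state or of other cells in any result was not tested. On arrays of bulk RNA, fewer expressing cells and less RNA per cell cannot be told apart.

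PDGFB, the B chain of platelet-derived growth factor, was the 1 of 10 members that passed the test, at 1.44-fold lower in SRPIN803 (95% interval 1.25 to 1.66). Of all genes 5.84% passed it in either direction, 2.37% downward and 3.46% upward. The PDGFB call was lost in 5 of 6 fits that each dropped an array, and its dimmer probe sets did not pass. PDGFA, the A chain, had a change of similar size, 1.39-fold lower (1.11 to 1.75), with an adjusted p of 0.0998 in limma over all genes. EFNA1 lay 1.28-fold higher (log2 interval 0.12 to 0.58) with an adjusted p of 0.0859. In the other 7 members the groups overlapped and limma's adjusted p was 0.388 to 0.980.

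Promoter sequence is shown for PDGFA, whose groups did not overlap in either of its probe sets, for EFNA1, whose SRPIN803 arrays were all higher, and for THBS1, a bright gene whose groups overlapped. Each run holds the 250 bases before a RefSeq start site, 5′ to 3′ on the gene's strand in build GRCh38.p14. Capitals mark the GC box GGGCGG and the EGR site GCGTGGGCG, on either strand. In THBS1 the EGR site overlaps a GC box.
PDGFA (chr7:519847-520096, minus strand): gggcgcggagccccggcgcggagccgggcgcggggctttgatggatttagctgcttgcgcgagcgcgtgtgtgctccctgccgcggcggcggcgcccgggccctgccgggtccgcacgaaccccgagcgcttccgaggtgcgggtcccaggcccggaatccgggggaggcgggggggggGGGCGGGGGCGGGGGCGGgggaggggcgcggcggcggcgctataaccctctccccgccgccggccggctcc
EFNA1 (chr1:155127626-155127875, plus strand): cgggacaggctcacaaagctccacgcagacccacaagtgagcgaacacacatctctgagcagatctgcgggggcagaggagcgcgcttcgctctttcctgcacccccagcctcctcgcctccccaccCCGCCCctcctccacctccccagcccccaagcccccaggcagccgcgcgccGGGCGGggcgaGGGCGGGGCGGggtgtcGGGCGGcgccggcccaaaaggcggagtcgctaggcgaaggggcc
THBS1 (chr15:39580829-39581078, plus strand): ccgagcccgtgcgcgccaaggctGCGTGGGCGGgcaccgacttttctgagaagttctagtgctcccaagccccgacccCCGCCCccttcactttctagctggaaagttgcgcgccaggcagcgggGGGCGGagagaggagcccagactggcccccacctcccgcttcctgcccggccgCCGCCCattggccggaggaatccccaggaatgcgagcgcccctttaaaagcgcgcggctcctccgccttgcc
PDGFA has 4 RefSeq start sites, and the window shown, chosen for its longest run of GC boxes, lies inside the span of the annotated gene. Its 3 GC boxes form an unbroken run from position -71 to -54, counted from the start site. The GC-rich stretch of this promoter is known to bind the factors SP1 and EGR1. EFNA1 has 5 GC boxes and THBS1 has 4.

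RefSeq's table held 12 windows for 6 of the 10 members. Windows were lacking for PDGFB, the member that passed the test, and for SERPINF1, ANGPT1 and ANGPT2. A GC box was found in 10 of the 12, EDN1 having it in 1 of its 3. Over the genes with a RefSeq promoter it was found in 42.3% of 27305 promoter windows of this length, taken as 1 window a gene. Those genes were not limited to the 19775 measured on the arrays. The members' 12 windows count every start site, and those of TYMP overlap each other, so the shares are not of like units. The EGR site was found in 1 of the 12, that of THBS1, and in 0.711% of the 27305 windows. TATAAA was found in 1 of the 12, a window of EDN1 (11.1% of the 27305), and the AP-1 site TGANTCA in 0 of the members' 12 windows (6.60%). These are matches of letters and were not tested as binding sites.

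PDGFB had levels of 6.25, 6.24 and 6.52 on the SRPIN803 arrays, against 6.84, 6.94 and 6.83 on the DMSO arrays. All SRPIN803 arrays lay below all DMSO arrays, with means of 6.34 ± 0.16 in SRPIN803 and 6.87 ± 0.06 in DMSO (SD, n = 3 each). The log2 change was -0.53 ± 0.09 (SE, limma's adjusted p = 0.0174), which placed PDGFB 459th of 19775 genes by p. The call rested on most of the arrays together. It was lost without any 1 DMSO array and without SRPIN803 replicate 1 or 2, with adjusted p of 0.0514 to 0.0755, and kept without SRPIN803 replicate 3 (0.0130). The log2 change stayed between -0.62 and -0.48 in these fits.

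These PDGFB values come from 216061_x_at, the brightest of its 4 probe sets, whose _x_at ending marks probes that may also bind other transcripts. The next in brightness, 204200_s_at, had levels of 5.11, 4.99 and 5.31 in SRPIN803, against 5.42, 5.39 and 5.62 in DMSO. Its groups did not overlap either, and its log2 change was -0.34 ± 0.10, which did not pass over all probe sets (limma's adjusted p = 0.165). The remaining PDGFB probe sets, 216055_at and 217112_at, lay below the median level, at -0.06 ± 0.10 and 0.04 ± 0.07. With the brightest probe set ending in neither _x_at nor _s_at, PDGFB was therefore at -0.06 with an adjusted p of 0.829, and with the mean of all 4 it was at -0.22 with an adjusted p of 0.0755.

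PDGFA had levels of 6.74, 7.07 and 6.45 on the SRPIN803 arrays, against 7.22, 7.25 and 7.22 on the DMSO arrays. All SRPIN803 arrays were lower, but they were spread widely, with an SD of 0.31 in SRPIN803 and 0.016 in DMSO. The log2 change was -0.48 ± 0.14 (SE). Leaving out SRPIN803 replicate 2, the highest of its group, gave -0.64 with an adjusted p of 0.0222, and leaving out replicate 3, the lowest, gave -0.33 with an adjusted p of 0.166. The other PDGFA probe set, 216867_s_at, was more even, with levels of 6.41, 6.20 and 6.25 in SRPIN803, against 7.01, 6.74 and 6.90 in DMSO. It passed over all probe sets, where 2.22% passed, 1.03% lower and 1.19% higher, with a log2 change of -0.59 ± 0.09 and limma's adjusted p = 0.0239. Of 6 fits that each dropped an array, only that without SRPIN803 replicate 1 kept the call, with adjusted p of 0.0406 to 0.108 and log2 changes of -0.66 to -0.53. With the mean of its probe sets PDGFA passed over all genes (-0.54, adjusted p = 0.0126). Both PDGFA probe sets were tested for moving apart and gave no call (diffSplice adjusted p = 0.800), where 3.36% of 5535 genes did.

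**Figure D1:**
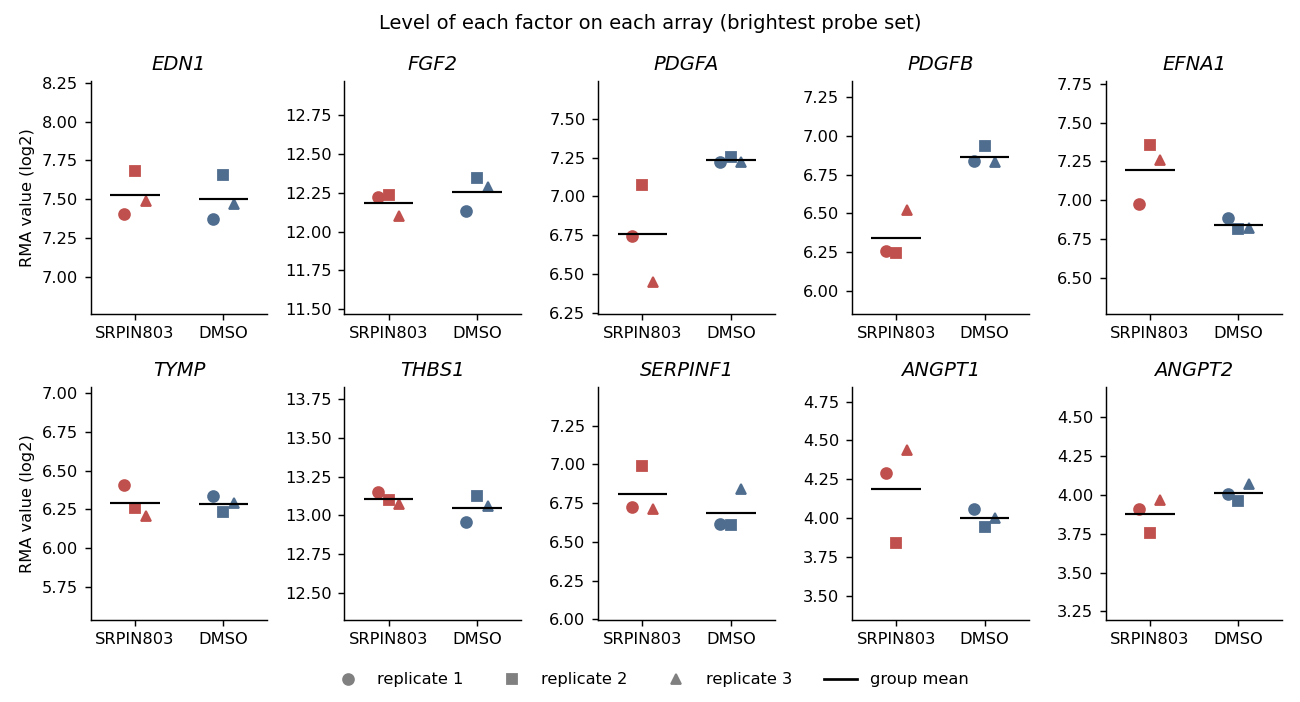
Level of each of the 10 factors on each array, as the RMA value (log2) of its brightest probe set, with SRPIN803 arrays in red, DMSO arrays in blue and bars for group means. Each panel spans the same 1.5 log2 units. PDGFA and PDGFB lie lower and EFNA1 higher on all SRPIN803 arrays, and the groups overlap in the other 7.

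EFNA1, a membrane-anchored ligand of EphA receptors that can also be shed, had levels of 6.97, 7.35 and 7.26 on the SRPIN803 arrays, against 6.88, 6.82 and 6.82 on the DMSO arrays. All SRPIN803 arrays lay above all DMSO arrays, replicate 1 by the least. Groups did not overlap in the upward direction in 15.2% of all genes. The log2 change was 0.35 ± 0.10, from its only probe set, and without SRPIN803 replicate 1 it was 0.46 with an adjusted p of 0.0227. It did not pass in the other 5 fits that left out an array, with adjusted p up to 0.232 and a lowest change of 0.28, without SRPIN803 replicate 2. Among genes at or above the median level alone, EFNA1 passed (adjusted p = 0.0272), as did PDGFA (0.0366), and both passed with a trended, robust variance model (0.0329 and 0.0286). Those settings called more genes in total, 1944 of 9888 and 2036 of 19775, against 1154 of 19775 as reported.

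FGF2, the basic fibroblast growth factor, was bright and had levels of 12.22, 12.24 and 12.10 in SRPIN803, against 12.13, 12.35 and 12.29 in DMSO. The groups overlapped, and the log2 change was -0.07 ± 0.08 with a 95% interval of -0.25 to 0.11. Its other probe set was at -0.12 ± 0.10. EDN1, the precursor of endothelin-1, had levels of 7.41, 7.68 and 7.49 in SRPIN803, against 7.37, 7.66 and 7.47 in DMSO. The groups overlapped fully at a change of 0.03 ± 0.10 (-0.20 to 0.26), and its other probe sets were at -0.11 ± 0.08 and -0.05 ± 0.09.

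TYMP had levels of 6.40, 6.26 and 6.21 in SRPIN803, against 6.34, 6.23 and 6.29 in DMSO. Its groups overlapped, at a change of 0.01 ± 0.07 (-0.16 to 0.17). In RefSeq's GRCh38.p14 annotation TYMP overlaps its neighbour on chromosome 22, SCO2, whose product helps to insert copper into cytochrome oxidase. The SCO2 probe set had a log2 change of -0.51 ± 0.08 (limma's adjusted p = 0.0111). Dropping 1 array at a time ended that call once, without DMSO replicate 3 (0.0553). The dim second probe set of TYMP was at -0.06 ± 0.10.

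The anti-angiogenic members did not pass the test. THBS1, a matrix glycoprotein that inhibits endothelial growth through CD36 and CD47, had levels of 13.15, 13.10 and 13.08 in SRPIN803, against 12.95, 13.12 and 13.06 in DMSO. The groups overlapped, and the change was 0.06 ± 0.07 (-0.09 to 0.21). Its 7 probe sets had log2 changes of -0.15 to 0.10, 4 below 0 and 3 above, none passed (lowest adjusted p = 0.497), and all 7 had overlapping groups. The 6 of them tested for moving apart gave no call (diffSplice adjusted p = 0.810).

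SERPINF1, measured by 1 probe set, had levels of 6.72, 6.99 and 6.71 in SRPIN803, against 6.62, 6.61 and 6.84 in DMSO. DMSO replicate 3 lay within the SRPIN803 range, and the change was 0.12 ± 0.10 (-0.11 to 0.35).

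Both angiopoietin genes were dim. ANGPT1 had levels of 4.29, 3.84 and 4.44 in SRPIN803, against 4.06, 3.94 and 4.00 in DMSO. The groups overlapped because of SRPIN803 replicate 2, the lowest of the 6 arrays, and the change was 0.19 ± 0.14 (-0.14 to 0.52). It was 0.36 without that array and 0.06 without SRPIN803 replicate 3 (adjusted p = 0.0597 and 0.856), and the other ANGPT1 probe sets were at -0.0057 and -0.034. ANGPT2 had levels of 3.91, 3.76 and 3.97 in SRPIN803, against 4.00, 3.96 and 4.07 in DMSO, with overlap and a change of -0.13 ± 0.07 (-0.30 to 0.04). All 7 probe sets of both genes lay below the median level. Since RMA flattens differences between dim probe sets, these intervals bound the array value rather than the amount of transcript.

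**Figure D2:**
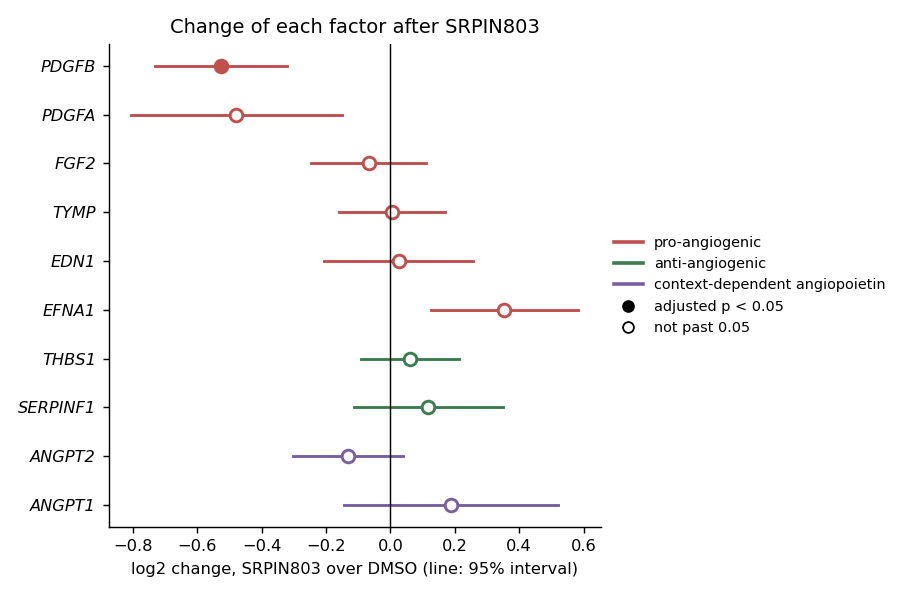
Log2 change of each factor, SRPIN803 over DMSO, with its 95% interval from limma, grouped by role. PDGFB, at -0.53, is the filled point, PDGFA and EFNA1 have intervals that leave out 0 without passing the adjusted test, and the other 7 intervals include 0.

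Set side by side, the 6 pro-angiogenic members had a median log2 change of -0.03 with 1 lower and 0 higher by the test. The 2 anti-angiogenic members had a median of 0.09 with 0 called, and the 2 angiopoietins a median of 0.03 with 0 called. The median over all 19775 genes was 0.02, with 2.37% lower and 3.46% higher by the test. Within the pro-angiogenic group changes ran from -0.53 for PDGFB to 0.35 for EFNA1, so its median describes neither end. Groups did not overlap in 3 of the 10 members, 2 lower and 1 higher, where 25.6% of all genes did not overlap, 10.4% lower and 15.2% higher.

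For the 4 members above the median level whose groups overlapped, FGF2, EDN1, THBS1 and SERPINF1, the 95% intervals lay between -0.25 and 0.35. As a point of comparison, the brightest VEGFA probe set had a log2 change of -0.85 ± 0.09 with an interval of -1.06 to -0.64, which none of these 4 intervals reached. The other VEGFA probe sets were at -0.64, -0.66 and -0.36. The last was not called, and its interval of -0.67 to -0.06 overlapped those of all 4 genes. The intervals of PDGFB (-0.73 to -0.32) and PDGFA (-0.81 to -0.15) overlapped that of the brightest VEGFA probe set.

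Over the 29 member probe sets, 2 passed, both lower, and groups did not overlap in 4 lower and 1 higher. Over all probe sets 2.22% passed, 1.03% lower and 1.19% higher, and groups did not overlap downward in 10.1% and upward in 11.3%. The 4 lower ones were both probe sets of PDGFA and the brighter pair of PDGFB. Of the 12 probe sets below the median level 0 passed, with log2 changes of -0.13 to 0.19.

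**Figure D3:**
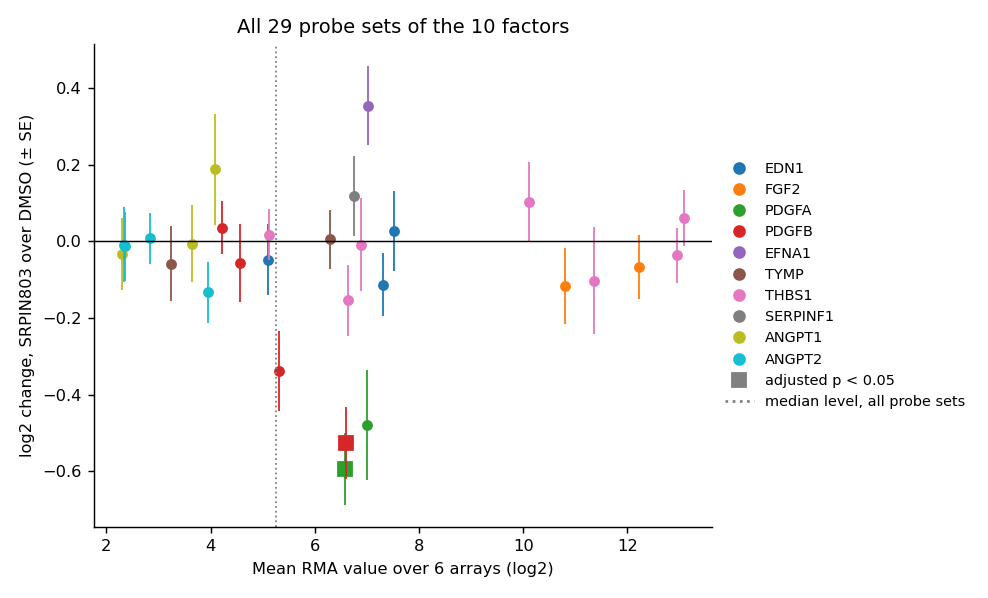
Log2 change (SRPIN803 over DMSO, ± limma's SE) of all 29 probe sets against their mean RMA value (log2) over the 6 arrays, coloured by gene, with a dotted line at the median of all probe sets. Squares mark the 2 probe sets that passed, 1 each of PDGFA and PDGFB, and the 7 THBS1 probe sets lie close to 0 over their whole range of brightness.

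The genes most like PDGFB over the 6 arrays, among 9888 genes at or above the median level, were TBL2 (Pearson r = 0.9992), ZFHX3 (0.9946) and N4BP2L2 (0.9909). Those most like EFNA1 were AOPEP (0.9946), UBAC2-AS1 (0.9944) and TBL1X (0.9940). These are descriptions over 6 arrays that share the split between groups, picked as the highest of many.

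Receptors, relatives and processing enzymes of the 10 factors, with other secreted stimulators and inhibitors, formed 10 lists of 99 genes, of which 95 were measured by a probe set of their own. Of these 6 were higher and 9 lower by the test, 15.8% of them beside the 5.84% of all genes, with list medians of -0.02 to 0.16. The lists were written with earlier results of these data known.

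In the PDGF list 1 of 7 genes rose and 0 fell. It was PDGFRL, a receptor-like protein, with a log2 change of 0.56 ± 0.09 (limma's adjusted p = 0.0173). It no longer passed when DMSO replicate 1, DMSO replicate 3, SRPIN803 replicate 2 or SRPIN803 replicate 3 was dropped (adjusted p up to 0.0611). The other ligand genes, chosen here after their values were seen, were at 0.07 ± 0.06 for PDGFC and -0.05 ± 0.10 for PDGFD, and the receptor gene PDGFRB was at -0.0070 ± 0.12.

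In the FGF list 1 of 13 genes fell and 1 rose. FGF5, a secreted growth factor known for ending hair growth, fell by 0.70 on the log2 scale (SE 0.06, limma's adjusted p = 0.00161), with all 3 of its probe sets at -0.80 to -0.60, and passed whichever array was dropped. FGF18 was at 0.54 ± 0.12 in its brightest probe set and between -0.38 and 0.14 in the other 5. It was called over all genes (limma's adjusted p = 0.0414), but this probe set did not pass over all probe sets (0.0704). Of the 6 fits that dropped an array, only that without DMSO replicate 2 kept the call over all genes.

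In the ephrin-A list 1 of 13 genes rose and 1 fell. The receptor gene EPHA5 was at 0.61 ± 0.06 (limma's adjusted p = 0.00221) in its brightest probe set, at -0.15 and 0.04 in the dimmer pair, and at 0.17 (adjusted p = 0.373) with the mean of all 3. The ligand gene EFNA5 was at -0.26 ± 0.06 (0.0433) and no longer passed whichever array was dropped (up to 0.138). Its other probe sets were at -0.24, -0.32 and -0.13. None of its probe sets passed over all probe sets, the brightest included (limma's adjusted p = 0.100).

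In the endothelin list 1 of 6 fell and 0 rose. It was ECE2, a converting enzyme, at -0.34 ± 0.07 (limma's adjusted p = 0.0336), with its other probe sets at -0.10 and 0.16 and it no longer passed whichever array was dropped (up to 0.130). In the thymidine phosphorylase list 1 of 7 rose and 1 fell. Beside SCO2 it was the uridine phosphorylase gene UPP2, very dim at a level of 3.10 and at 0.33 ± 0.07 (0.0325), and it too passed in none of those fits (up to 0.0950). Over all probe sets, the brightest probe sets of ECE2 and UPP2 did not pass (limma's adjusted p = 0.0717 and 0.0719).

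Of 9 genes in the thrombospondin list 0 were called, with the receptor gene CD47 at 0.13 ± 0.06 (limma's adjusted p = 0.296). Of 4 in the list of PEDF receptors 0 were called, with PLXDC2 at 0.17 ± 0.10 (0.442). The other probe sets went both ways, from -0.18 to 0.19 for CD47 and from -0.53 to 0.06 for PLXDC2, and none passed. In the angiopoietin list 1 of 5 rose and 0 fell. It was ANGPTL4, a lipase inhibitor that does not bind TEK, at 1.55 ± 0.11 (0.000855), and both of its probe sets were higher, by 1.55 and 1.24.

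Among 16 other secreted stimulators 4 fell and 1 rose, and among 15 other inhibitors 1 fell and 0 rose. The stimulators with the largest changes were the chemokine CXCL8 at -2.18 ± 0.14, the vasodilator peptide gene ADM at 1.29 ± 0.08 and the growth factor gene HBEGF at -0.77 ± 0.11 (limma's adjusted p = 0.000488, 0.000382 and 0.00942). The inhibitor was the metalloprotease gene ADAMTS1 at -0.71 ± 0.08 (0.00418). These 4 passed whichever array was dropped. HBEGF was at -0.77 and -0.75 in its bright probe sets but at 0.17 and 0.13 in its dim ones, and with the mean of all 4 it was at -0.30 and did not pass (0.0728).

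**Figure D4:**
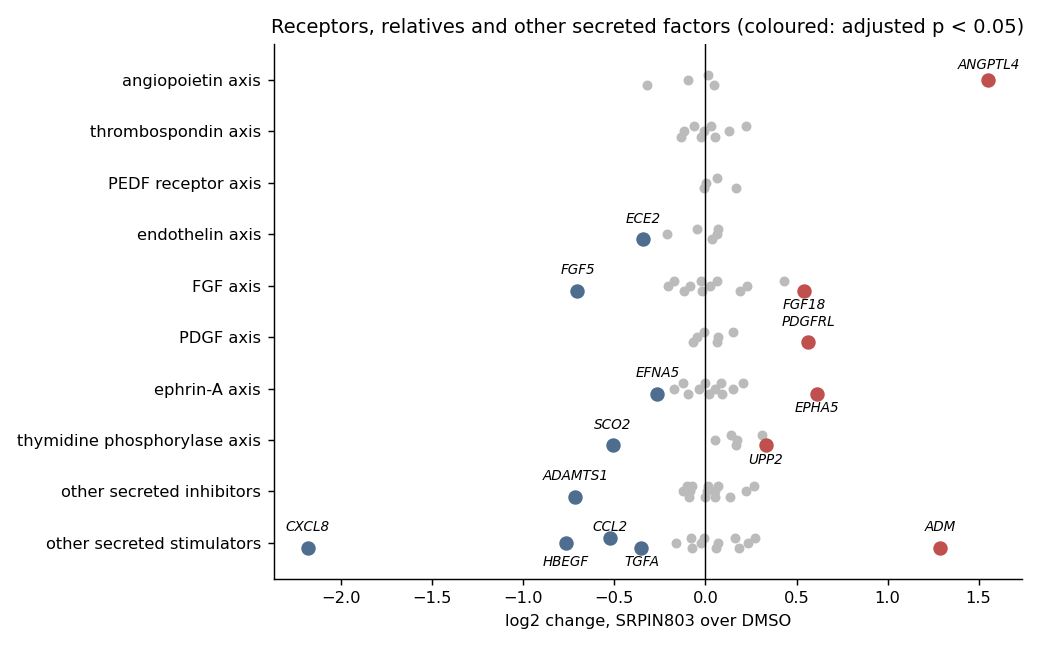
Log2 change (SRPIN803 over DMSO) of each measured gene in the 10 lists, with 1 row for each list. Genes past an adjusted p of 0.05 are named and coloured red where higher and blue where lower, 6 and 9 in all, and most grey points lie close to 0.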

How the data were processed

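Expression was measured on Affymetrix 3' arrays, 3 per group. The log2 values deposited by the authors, 1 per probe set and array, are RMA values, per the submitters' processing notes. RMA corrects background, normalizes between arrays and summarises probes. Its software version is not given in the sources used here. Sorted, the 6 arrays' values lay within 0.14 of each other at each rank, so a change in total RNA per cell would not be seen. Precision is limited by the number of arrays.

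Of 54675 probe sets 62 were controls. Names came from the platform annotation (41091 probe sets with 1 gene, 1801 with several, 11721 unnamed here). Of those with 1 gene, 41037 were found in RefSeq's gene table, and 0 symbols changed. Each gene was represented by its brightest such probe set.

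The test was limma 3.58.1 (lmFit and eBayes in R 4.3.3, two-sided), with 4 residual degrees of freedom and p adjusted by Benjamini-Hochberg over all genes or probe sets, called at an adjusted p under 0.05. Fold ranges and intervals are 95% confidence intervals. Probe sets moving apart were tested with diffSplice (Simes) over 5535 genes with 2 or more probe sets that reach the median level and do not end in _x_at. With 3 arrays in each group the smallest exact permutation p is 0.1, and that test was not used. The tests were tested on simulated data. All members were named. Of each list up to 3 called genes with the largest change were named, or the 1 with the smallest p. Likeness took the 3 highest correlations for the 2 members with the smallest p. The members and lists were chosen with earlier results of these data known. Promoter sequences are RefSeq's. Plots used matplotlib 3.10.9 in Python 3.11.15.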

Additional observations from a re-analysis of the deposited data

How the results depend on the processing

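The count of called genes, 1154 as reported, was 324 to 687 with 1 array left out, 689 with the replicate block, 1944 among genes at or above the median level and 2036 with a trended, robust variance model. That of probe sets, 1214, was 215 to 716 with 1 array left out, and 304, 2667 and 2997 under the same alternatives. Replicate numbers did not clearly pair the arrays: deviations of same-numbered arrays correlated at 0.39, -0.07 and 0.23, and not every array correlated best with its own number. So few arrays cannot settle whether the replicates were paired. Called members, 1 as reported, were 0 to 1 with 1 array left out (EFNA1, PDGFA and PDGFB once each, without SRPIN803 replicates 1, 2 and 3). They were 0 with the replicate block (PDGFB adjusted p = 0.0509), 3 among genes at or above the median level, 3 with the trended model and 0 with the brightest probe set ending in neither _x_at nor _s_at. PDGFA and FGF2 have only _s_at probe sets, so in that last setting they kept the probe set reported. Member probe sets called, 2, were 0 to 1 with 1 array left out and 1 with the block. Genes whose probe sets moved apart, 186, were 46 to 288 with 1 array left out, 122 with the block and 47 above the 75th percentile, chosen after seeing the data, since the planned filter was already in the setting reported. Medians by role moved by less than the spread between replicates under all alternatives that gave one. With 1 array left out they were -0.08 to 0.0097 for pro-angiogenic members, 0.05 to 0.13 for anti-angiogenic members and -0.06 to 0.15 for angiopoietins. Of 147 alternative values of single members 119 kept sign and side of the threshold, 7 passed it, 8 lost it and 13 changed sign, all of the last near 0. EDN1 ran from -0.050 to 0.11 with 1 array left out and was at -0.045 with the mean of all probe sets, which put THBS1 at -0.017, TYMP at -0.026 and PLXDC2 at -0.11. TYMP ran from -0.052 to 0.046 with 1 array left out, and was at -0.0068 with arrays centred, -0.0030 with cyclic loess and -0.0021 with array weights. Without _x_at and _s_at probe sets TYMP was at -0.058, ANGPT1 at -0.0057 and ANGPT2 at 0.0077. Of 236 values of the other named genes 192 kept sign and side, 43 lost the call and 1 changed sign. Except where a setting tests fewer features or fewer arrays, the cause was not tested.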
